A study of Mus musculus with 39 samples.

Results

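The 9 genes described here are mouse genes that respond to glucocorticoid hormone or bind metal: Fkbp5, Tsc22d3, Sgk1, Zbtb16, Glul, Cebpd, Cebpb, Mt1 and Mt2. They were chosen by symbol, with earlier results of these data known. Each has 1 row among the 16979 genes of the table of 32 libraries and 1 row among the 13938 genes of the table of 7 libraries. The study sequenced polyadenylated RNA from the hindlimb muscle of mice and from the stem cells purified out of it (MuSCs, also called satellite cells). Its labels set transcripts made in the animal against those made while the stem cells are taken out of the tissue. Mice carried Pax7CreER/+ and UPRTHA/+, a Cre recombinase driven from the satellite cell gene Pax7 and an enzyme that lets cells build 4-thiouracil (4tU) into new RNA.

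In the first table, 3 groups held labelled RNA pulled down from hindlimb muscle after 4tU had been injected 6 h before harvest (the 6 h label), every 12 h for 1 d (the 1 d label) or every 12 h for 4 d (the 4 d label). Their counterpart was total RNA of whole hindlimb muscle. Another group held labelled RNA pulled down from purified MuSCs to which 4tU had been added during the isolation of about 6 h (the isolation label), set against the total RNA of purified MuSCs (isolated cells). A further pair held MuSCs isolated with α-amanitin, an inhibitor of RNA polymerase II, and MuSCs isolated with DMSO alone. Each of these 8 groups had 4 libraries. In the second table, 4 libraries came from MuSCs of mice perfused with 1% paraformaldehyde before sorting (fixed) and 3 from MuSCs sorted without fixation (unfixed). The labels give no genotype for the fixation mice, no age and no batch. Whether replicates came from different animals is not stated, so the spread behind each p-value is that between these samples and may be technical.

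Glucocorticoid hormones enter cells and bind the glucocorticoid receptor, which moves to the nucleus and acts at DNA elements near its target genes. In skeletal muscle the hormone is known for raising genes of protein breakdown and of fuel switching. Fkbp5 encodes a co-chaperone that lowers the receptor's affinity for hormone, Tsc22d3 (also called GILZ) a leucine zipper protein that restrains inflammatory transcription factors, Sgk1 a kinase of ion transport and survival signalling, and Zbtb16 (PLZF) a zinc finger repressor. Glul encodes glutamine synthetase. Cebpb and Cebpd are transcription factors of the C/EBP family that also respond to inflammation and injury. Mt1 and Mt2 encode metallothioneins, small cysteine-rich proteins that bind zinc and copper, and their genes respond to metals through the factor MTF1 as well as to glucocorticoids and stress.

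The values are RPKM, reads per kilobase of gene model after scaling for library size by the authors, and differences are on the log2(RPKM + 0.5) scale. Calls were made in limma at an adjusted p (Benjamini-Hochberg, over all genes tested) under 0.05, and every adjusted p below is from that test. Libraries held 2321903 to 102619074 reads in the first table, fewest in the isolation label with 2321903 to 7742378, and 22704011 to 25045404 in the fixation table. The 11 satellite cell markers together took 0.0415% ± 0.00278 of the reads after 6 h of label, 0.0183% ± 0.000232 after 1 d, 0.0166% ± 0.000260 after 4 d and 0.0140% ± 0.000362 in whole muscle (SD, n = 4 each). In the stem cell groups of the same table, that share was 0.331% ± 0.101 in the isolation label, 1.10% ± 0.0202 in isolated cells, 0.769% ± 0.0540 with α-amanitin and 1.02% ± 0.0877 with DMSO. The labels name the 3 in vivo label groups as skeletal muscle stem cells, and 16 muscle fibre markers took 11.7%, 21.6% and 20.9% of their reads at 6 h, 1 d and 4 d, against 19.6% in whole muscle. Which cells the labelled transcripts came from was not tested.

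On mm10, Fkbp5 lies at chr17:28399095-28517524, Tsc22d3 at chrX:140539528-140600659, Sgk1 at chr10:21882184-21999903, Zbtb16 at chr9:48654311-48835945 and Glul at chr1:153899944-153909723. Cebpd lies at chr16:15887286-15888466 and Cebpb at chr2:167688915-167690418. The metallothioneins are neighbours on the plus strand, Mt2 at chr8:94172618-94173567 and Mt1 at chr8:94179089-94180325. Cebpb shares 312 exon bases with Tmem189 on the opposite strand, and Glul shares 67 with Teddm2. Whether counting used strand is not stated in the labels, so reads in those bases cannot be told apart.

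RefSeq promoters (GRCm38.p6) were found for 7 of the 9 genes, with 14 start sites in all. In the 250 bases before each start, both strands were searched for the core of the metal response element, TGCACNC or TGCGCNC, and for the glucocorticoid response element, the letters GNACA and TGTNC with NNN between them. The metal core was present in 3 of the 14 promoters, those of Mt1, Mt2 and Glul, and in 21.4% of 32851 promoters in the same table. The glucocorticoid element was present in 2 of the 14, that of Mt1 and 1 of the start sites of Sgk1, and in 0.387% of the 32851. The promoters of Mt1 and Mt2 are shown because the levels of these neighbouring genes ran alike over the 8 groups of the first table (Pearson r of 0.988 between their group means), and that of Sgk1 because it holds the other glucocorticoid element, with both motifs in capitals. The metal core begins 23 bases before the start of Mt1, 93 bases before that of Glul and 223, 128 and 50 bases before that of Mt2. The glucocorticoid element begins 94 bases before the start of Mt1 and 188 bases before that start of Sgk1. These distances depend on the RefSeq start used, and GENCODE starts Mt2 at chr8:94172664 and Mt1 at chr8:94179082. The windows are chr8:94178839-94179088 for Mt1, chr8:94172368-94172617 for Mt2 and chr10:21993640-21993889 for Sgk1, all on the plus strand, and a match is a description of letters and not a site of binding.
Mt1: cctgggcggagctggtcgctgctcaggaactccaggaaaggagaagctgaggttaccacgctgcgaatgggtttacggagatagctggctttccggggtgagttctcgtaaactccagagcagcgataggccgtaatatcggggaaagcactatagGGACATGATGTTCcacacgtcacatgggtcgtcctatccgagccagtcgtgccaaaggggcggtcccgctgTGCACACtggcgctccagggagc
Mt2: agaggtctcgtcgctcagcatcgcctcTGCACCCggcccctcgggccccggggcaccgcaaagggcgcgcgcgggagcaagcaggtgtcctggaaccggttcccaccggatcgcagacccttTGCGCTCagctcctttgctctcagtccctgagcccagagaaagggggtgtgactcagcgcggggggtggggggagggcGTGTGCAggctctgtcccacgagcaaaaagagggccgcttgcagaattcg
Sgk1: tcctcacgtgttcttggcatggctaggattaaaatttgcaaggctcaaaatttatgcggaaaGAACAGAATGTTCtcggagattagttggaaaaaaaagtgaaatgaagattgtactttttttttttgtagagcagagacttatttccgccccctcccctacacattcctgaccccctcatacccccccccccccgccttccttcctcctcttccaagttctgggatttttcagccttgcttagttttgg

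**Figure D1:**
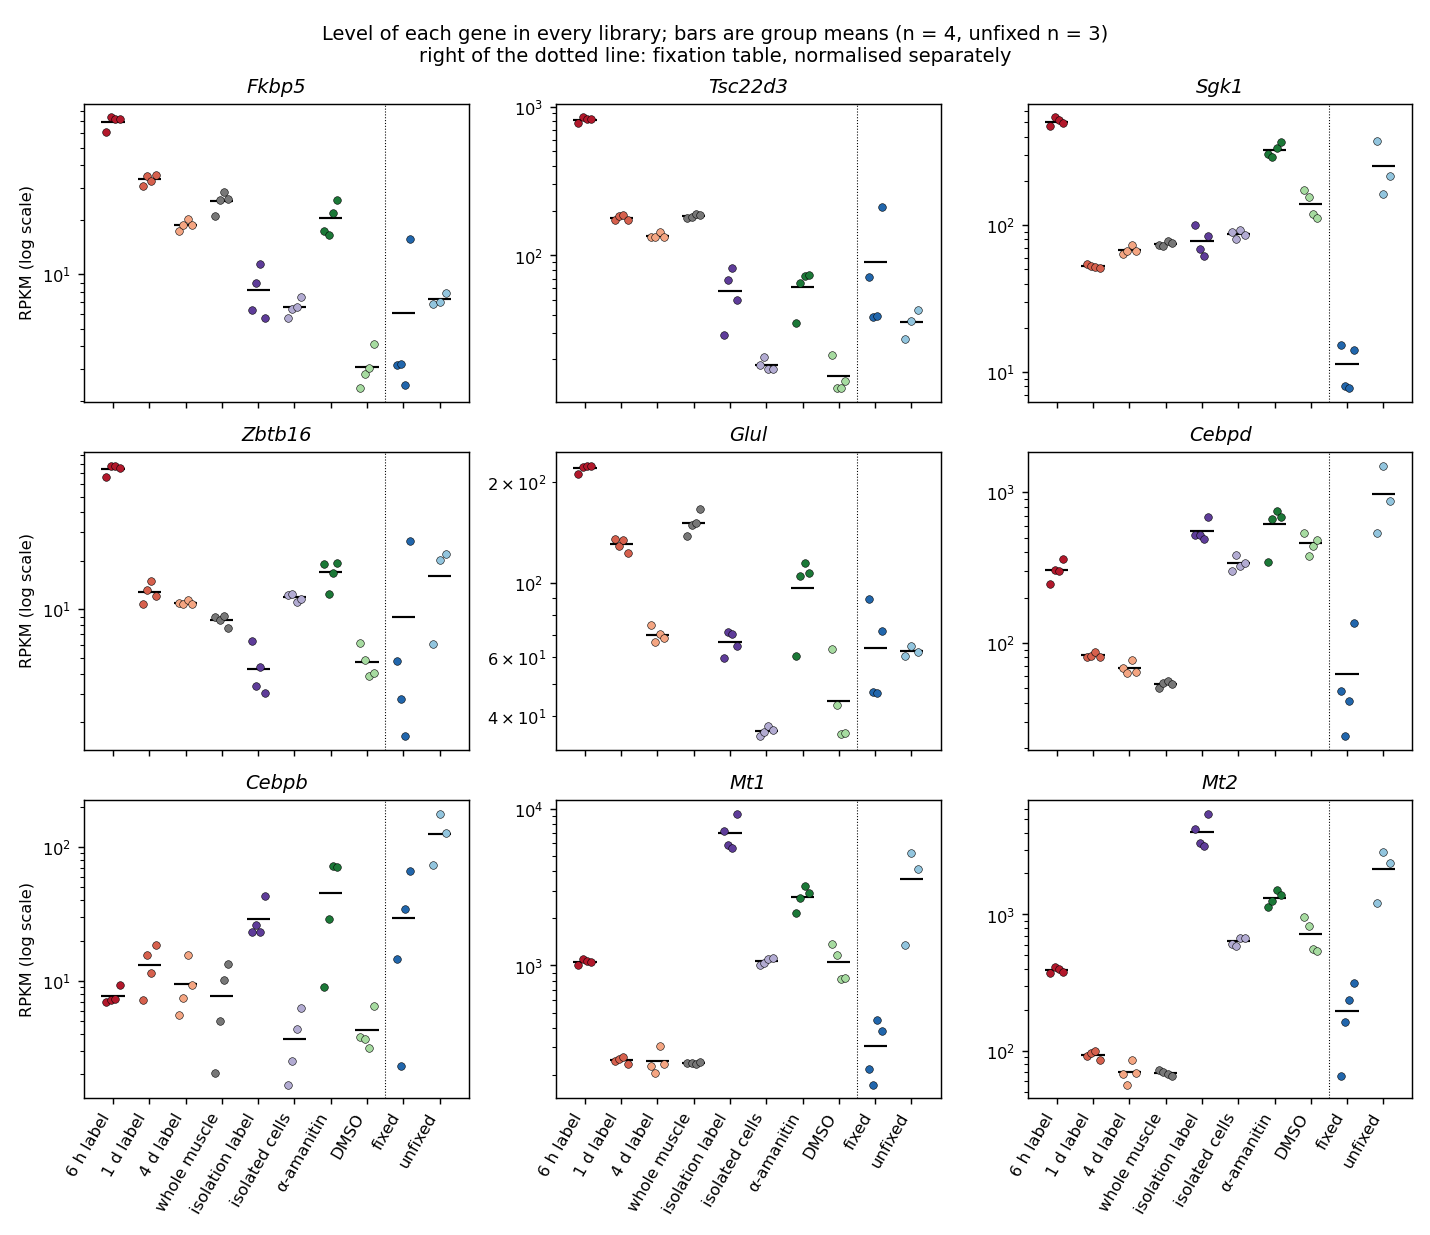
RPKM (log axis) of each of the 9 genes in every library, by group; points are libraries, bars are group means, and the fixation table stands to the right of the dotted line. The 6 h label is the highest group of its table for Fkbp5, Tsc22d3, Sgk1, Zbtb16 and Glul, while the isolation label is highest for Mt1 and Mt2.

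In RNA labelled in the animal for 6 h, 8 of the 9 genes were higher than in whole muscle, and none was lower. Zbtb16, Sgk1, Mt2 and Cebpd stood more than 5-fold above whole muscle, Mt1 and Tsc22d3 more than 4-fold, Fkbp5 2.73-fold and Glul 1.46-fold. Of 11746 genes tested in this comparison, 90% were called and 45.6% were called higher, so the count of calls is to be read against that background, and the sizes carry the description. Libraries of the groups did not overlap for those 8 genes, nor for 86.2% of all genes. The median of the 9 differences was 2.14 (log2), against 0.02 over all genes tested. In bulk RNA, more transcripts per cell and more cells of a type cannot be told apart. The label groups were pulled down and whole muscle was not. A higher level in the tissue and a larger part among labelled transcripts thus cannot be told apart either.

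Zbtb16 had 65.9, 77.4, 77.9 and 75.4 RPKM in the 6 h label, against 8.90, 8.65, 9.07 and 7.67 in whole muscle. The gap is far wider than the spread of either group. Its difference of 3.04 ± 0.0610 (log2 ± SE, adjusted p = 2.21e-13) was the 52nd highest of the 11746 genes. Sgk1 had 472, 543, 521 and 494 RPKM in the 6 h label, against 72.7, 72.0, 77.4 and 75.2 in whole muscle. That difference, 2.76 ± 0.0434 (adjusted p = 6.26e-14), was the 70th highest. Tsc22d3 had 778, 850, 824 and 820 RPKM in the 6 h label, against 180, 181, 190 and 188 in whole muscle. Libraries of each group lay close together, and the difference was 2.14 ± 0.0344 (adjusted p = 6.69e-14). Fkbp5 had 61.2, 73.7, 71.9 and 72.0 RPKM in the 6 h label, against 20.9, 25.6, 28.5 and 26 in whole muscle. Replicate 1 was the lowest library of both groups, the groups did not overlap, and the difference was 1.45 ± 0.0830 (adjusted p = 2.51e-09).

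Glul, the enzyme that makes glutamine, had 211, 221, 223 and 224 RPKM in the 6 h label, against 138, 148, 151 and 166 in whole muscle. It was higher by 0.54 ± 0.0477 (log2, adjusted p = 1.90e-07), the smallest of the 8 upward differences. The C/EBP pair went apart. Cebpd had 244, 304, 302 and 363 RPKM in the 6 h label, against 50.4, 54.1, 55.9 and 53.4 in whole muscle (2.48 ± 0.0894, adjusted p = 2.98e-11). Cebpb had 6.91, 7.24, 7.31 and 9.27 RPKM in the 6 h label, against 2.04, 5.03, 10.2 and 13.3 in whole muscle. Whole muscle spanned the values of the 6 h label for Cebpb, and the difference of 0.27 ± 0.395 was not called (adjusted p = 0.526).

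Both metallothioneins were higher in the 6 h label, with little spread between libraries. Mt1 had 1006, 1096, 1067 and 1058 RPKM in the 6 h label, against 238, 240, 236 and 241 in whole muscle (2.14 ± 0.0317, adjusted p = 5.68e-14). Mt2 had 374, 411, 394 and 377 RPKM in the 6 h label, against 71.7, 70.1, 67.3 and 64.5 in whole muscle (2.50 ± 0.0412, adjusted p = 7.20e-14). Beside these differences, the muscle fibre markers were lower in the 6 h label in 16 of 16 cases. Their share was 11.7% ± 0.112, against 19.6% ± 0.175 in whole muscle. The endothelial markers took 0.167% ± 0.00169 in the 6 h label and 0.0999% ± 0.00185 in whole muscle, with 5 of 8 higher and 3 lower. Of 11 immune markers, 10 were lower and 1 higher in the 6 h label, and 5 of 5 erythroid markers were lower. The part of these cell types in the result was not tested.

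Other glucocorticoid targets were also mostly higher. Their list was chosen with earlier results of these data known, so it gives no independent support. Of 25 listed genes, 24 were tested, and 23 were higher and 0 lower in the 6 h label than in whole muscle, with a median difference of 1.69. Pdk4, a kinase that turns off pyruvate oxidation, averaged 1711 ± 70.3 RPKM in the 6 h label and 79.9 ± 3.52 in whole muscle (4.41, adjusted p = 2.93e-15). Ddit4, an inhibitor of mTOR signalling, averaged 293 ± 41.4 RPKM in the 6 h label and 6.04 ± 0.367 in whole muscle (5.48, adjusted p = 6.26e-14). The single gene that was not called was Anxa1, at 63.0 ± 1.90 RPKM in the 6 h label and 66.5 ± 3.85 in whole muscle (adjusted p = 0.114), which is named after its value was seen. Of 12 genes of the receptor and its cofactors, 6 were higher and 4 lower. The co-chaperone Fkbp4 was lower by 1.56, with 46.8 ± 2.08 RPKM in the 6 h label and 139 ± 3.26 in whole muscle. Of 15 tested genes of metal handling and oxidative stress, 10 were higher and 3 lower. Among them Slc39a14, a zinc importer, averaged 8.46 ± 0.860 RPKM in the 6 h label and 0.904 ± 0.0584 in whole muscle (2.67), and Hmox1, which breaks down haem, averaged 42.0 ± 1.28 RPKM in the 6 h label and 11.1 ± 0.215 in whole muscle (1.87). The muscle value of Slc39a14 is near the floor, under the 1 RPKM used to filter genes.

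After 1 d of label the differences of the 9 genes from whole muscle ran from -0.50 for Sgk1 to 0.94 for Cebpb, and after 4 d of label from -1.10 for Glul to 0.46 for Cebpb, which was not called at either time. Against the same 4 muscle libraries, 4 genes were called higher and 2 lower in the 1 d label, where 82.9% of 11158 genes were called, and 2 were called higher and 4 lower in the 4 d label, where 84.5% of 11347 genes were called. The shares of all genes called higher and lower were 28.2% and 54.7% after 1 d of label, and 28.1% and 56.4% after 4 d of label. The median of the 9 differences was 0.40 at 1 d and 0.00 at 4 d, against -0.19 and -0.21 over all genes tested. The comparisons at 6 h, 1 d and 4 d share their muscle libraries. With all groups of the table in 1 fit, 2 of the 6 calls at 4 d were kept, those of Fkbp5 and Glul. In that fit 6037 of 11347 genes were called at 4 d. Immune markers moved beside these differences. Of 11, 10 were lower and 0 higher in the 1 d label, and 8 were lower and 2 higher in the 4 d label. Adipocyte markers were lower in 5 of 5 cases at both times. Erythroid markers were lower in 5 of 5 cases at 1 d and higher in 4 of 5 at 4 d. Mitochondrially encoded genes were divided. Of 12, 8 were lower and 4 higher at 1 d, and 6 were lower and 5 higher at 4 d. The part of these genes in the result was not tested.

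Sgk1 had 54.2, 52.6, 51.7 and 50.9 RPKM after 1 d of label and 63.6, 67.0, 73.1 and 66.2 after 4 d of label. All 1 d values were below the lowest muscle library at 72.0 (groups did not overlap for 76.5% of all genes), whereas the highest 4 d value overlapped the muscle group. The differences from muscle were -0.50 (adjusted p = 6.17e-08) at 1 d and -0.14 (adjusted p = 0.0103) at 4 d. Tsc22d3 averaged 179 ± 7.15 RPKM after 1 d of label, 136 ± 5.01 after 4 d of label and 185 ± 5.07 in whole muscle. It was not called at 1 d (adjusted p = 0.335) and was lower than muscle by 0.44 at 4 d (adjusted p = 1.20e-07). With median-of-ratios library factors, which bring the median of all genes to 0.00 at 1 d and to 0.01 at 4 d, Tsc22d3 was 0.16 higher at 1 d (adjusted p = 7.22e-04) and Sgk1 was 0.10 higher at 4 d (adjusted p = 0.0168). Those factors gave 7 higher and 1 lower among the 9 genes at 1 d, and 5 higher and 3 lower at 4 d. Over all genes, they gave 4581 higher and 4481 lower of 11158 at 1 d, and 4797 higher and 4692 lower of 11347 at 4 d.

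Zbtb16 averaged 12.7 ± 1.78 RPKM after 1 d of label, 11 ± 0.328 after 4 d of label and 8.57 ± 0.623 in whole muscle, and was called higher at both times (0.54 and 0.34). Fkbp5 averaged 33.4 ± 2.17 RPKM after 1 d of label, 18.7 ± 1.23 after 4 d of label and 25.3 ± 3.14 in whole muscle. It was above muscle at 1 d (0.40, adjusted p = 3.11e-04) and below it at 4 d (-0.41, adjusted p = 3.33e-04), with no overlap at either time (76.5% of all genes had none at 1 d and 79.6% at 4 d). Glul averaged 130 ± 5.74 RPKM after 1 d of label, 70.0 ± 3.61 after 4 d of label and 151 ± 11.4 in whole muscle. Its difference of -1.10 from muscle at 4 d (adjusted p = 1.34e-09) was the largest departure of the 9 genes at that time. Cebpd averaged 82.6 ± 2.97 RPKM after 1 d of label, 68.0 ± 6.43 after 4 d of label and 53.5 ± 2.26 in whole muscle and was called higher at both (0.62 and 0.34). Cebpb, at 13.2 ± 4.89 RPKM after 1 d of label, 9.45 ± 4.33 after 4 d of label and 7.65 ± 5.07 in whole muscle, was not called at either time (adjusted p = 0.0531 and 0.344). At 1 d it was called with median-of-ratios factors (1.14, adjusted p = 0.0369), library sizes from all reads (adjusted p = 0.0356), a filter of 5 RPKM (adjusted p = 0.0467) and voom on recovered reads (adjusted p = 0.0268). It was also called there without replicate 1 of the 1 d label (adjusted p = 0.0233), without replicate 3 of whole muscle (adjusted p = 0.0283) or without replicate 4 of whole muscle (adjusted p = 0.00954). With replicate number as a block in the fit, Cebpb was called higher at 1 d as well (adjusted p = 7.98e-04).

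Mt1 was at 248 ± 11.4 RPKM after 1 d of label, 245 ± 44.0 after 4 d of label and 239 ± 2.31 in whole muscle, and was not called at either time with the authors' scaling (adjusted p = 0.233 and 0.836). With median-of-ratios factors it was called higher at 1 d (0.26, adjusted p = 2.95e-05) and at 4 d (0.26, adjusted p = 0.0169), and with library sizes from all reads likewise (adjusted p = 1.64e-05 and 0.0359). Mt2 was at 93.2 ± 5.84 RPKM after 1 d of label, 69.3 ± 12.4 after 4 d of label and 68.4 ± 3.19 in whole muscle. It was higher at 1 d (0.44, adjusted p = 2.62e-06) and was not called at 4 d (adjusted p = 0.978). Of the other 24 glucocorticoid targets, 13 were higher and 8 lower in the 1 d label, and 6 were higher and 14 lower in the 4 d label. Pdk4 was above muscle at 1 d, with 303 ± 64.4 RPKM in the 1 d label and 79.9 ± 3.52 in whole muscle (1.89). Per1, a circadian clock repressor, was higher at both times, with 2.42 ± 0.122 RPKM after 1 d of label, 2.71 ± 0.217 after 4 d of label and 0.825 ± 0.0975 in whole muscle. That muscle value is near the floor, under the 1 RPKM used to filter genes.

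**Figure D2:**
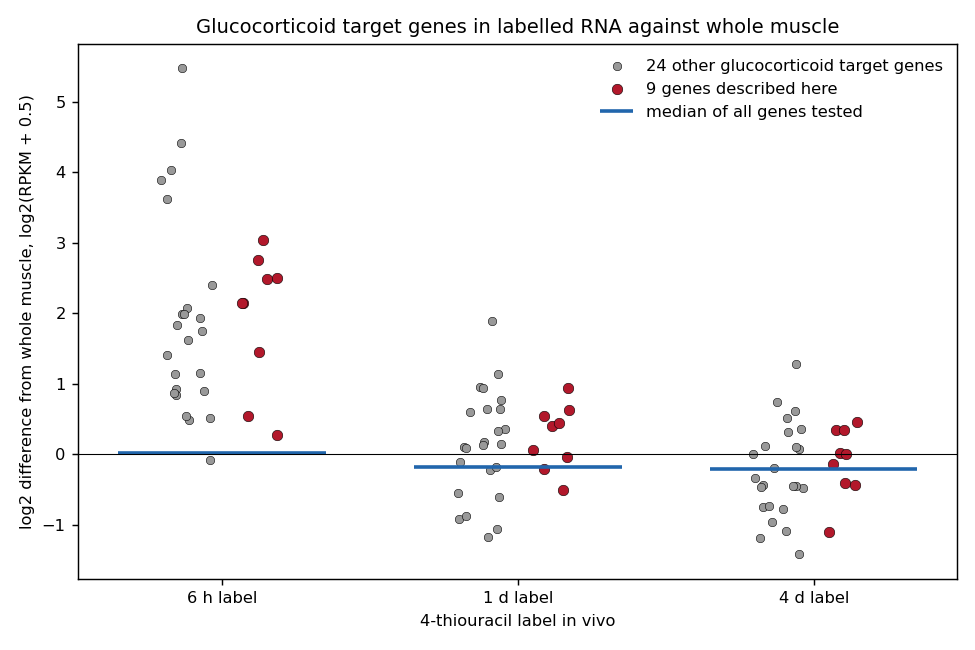
Differences from whole muscle, log2(RPKM + 0.5), in the 6 h, 1 d and 4 d labels; grey points are the 24 tested glucocorticoid targets of the separate list, red points the 9 genes, and blue lines the median of all genes tested. At 6 h the red points run up to 3.04 and the grey points up to 5.48 (Ddit4), and at 1 d and 4 d both sets lie on both sides of 0.

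Set against the 4 d label directly, the 6 h label was higher for 8 of the 9 genes and lower for none, where 88.7% of 11975 genes were called and 52.7% were called higher. Libraries did not overlap for those 8 genes, nor for 84.7% of all genes. The differences were 2.90 for Sgk1, 2.70 for Zbtb16, 2.59 for Tsc22d3, 2.50 for Mt2, 2.14 for Cebpd, 2.12 for Mt1, 1.87 for Fkbp5 and 1.64 for Glul, all with adjusted p of 8.91e-10 or less. Sgk1 ranked 42nd and Zbtb16 65th of all genes tested. Cebpb was not called (-0.19, adjusted p = 0.429). All 24 tested glucocorticoid targets of the separate list were called higher in the 6 h label. Their median difference was 1.86, against 0.18 over all genes, and the list was chosen with earlier results known. The receptor gene Nr3c1 averaged 32.7 ± 2.65 RPKM in the 6 h label and 15.7 ± 0.859 in the 4 d label (1.04, adjusted p = 4.41e-09). Marker genes moved beside these differences, with 16 of 16 muscle fibre markers, 5 of 5 erythroid and 6 of 8 fibro-adipogenic markers lower in the 6 h label and 7 of 9 tested satellite cell markers higher. Muscle fibre markers took 11.7% ± 0.112 of reads in the 6 h label and 20.9% ± 0.290 in the 4 d label, and erythroid markers took 0.0332% ± 0.00237 in the 6 h label and 0.227% ± 0.0114 in the 4 d label. Their part in the result was not tested.

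**Figure D3:**
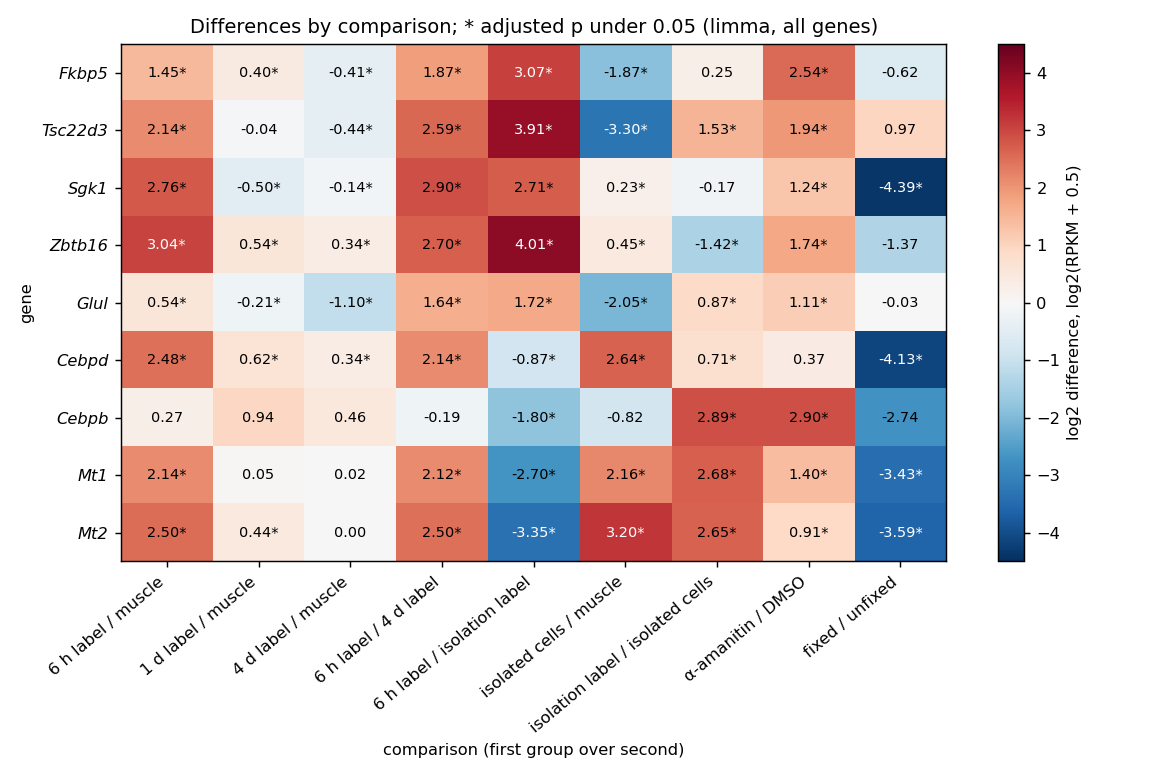
Difference of each gene in each comparison, log2(RPKM + 0.5), first group over second; red is higher and blue lower in the first group, and stars mark calls. The 6 h label columns are red for Sgk1, Zbtb16, Tsc22d3, Fkbp5 and Glul, while Mt1 and Mt2 run to -2.70 and -3.35 against the isolation label.

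Isolated stem cells held more metallothionein and Cebpd RNA than whole muscle and less Tsc22d3, Glul and Fkbp5 RNA. In this comparison of total RNA from purified MuSCs with total RNA from hindlimb muscle, 5 of the 9 genes were higher and 3 lower, where 95.3% of 14813 genes were called, 48.8% higher and 46.5% lower. Mt2 had 608, 591, 672 and 666 RPKM in isolated cells, against 71.7, 70.1, 67.3 and 64.5 in whole muscle (3.20, adjusted p = 4.36e-14). Mt1 had 1015, 1040, 1104 and 1110 RPKM in isolated cells, against 238, 240, 236 and 241 in whole muscle (2.16, adjusted p = 3.64e-13). Cebpd averaged 338 ± 34.9 RPKM in isolated cells and 53.5 ± 2.26 in whole muscle (2.64, adjusted p = 1.50e-12). None of these 3 genes had libraries that overlapped, nor had 93.7% of all genes.

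Tsc22d3 had 18.4, 20.7, 17.3 and 17.2 RPKM in isolated cells, against 180, 181, 190 and 188 in whole muscle. It was 9.82-fold lower (adjusted p = 3.68e-14), the largest fall of the 9 genes. Glul averaged 36.1 ± 1.13 RPKM in isolated cells and 151 ± 11.4 in whole muscle (-2.05), and Fkbp5 averaged 6.55 ± 0.717 RPKM in isolated cells and 25.3 ± 3.14 in whole muscle (-1.87). Sgk1 and Zbtb16 differed little, by 0.23 and 0.45, though both were called; with all groups of the table in 1 fit Sgk1 was not (adjusted p = 0.0980). Cebpb had 1.67, 2.53, 4.35 and 6.25 RPKM in isolated cells, against 2.04, 5.03, 10.2 and 13.3 in whole muscle. Replicate 1 was the lowest library of both groups, as in 6 of the 8 groups of the table, and Cebpb was not called (adjusted p = 0.126). It was called lower in isolated cells without replicate 1 of whole muscle (-1.29, adjusted p = 0.00740) and with voom on recovered reads (adjusted p = 0.0418). With replicate number as a block in the fit, Cebpb was also called lower (-0.82, adjusted p = 1.18e-04). Taking library sizes from all reads put the median over all genes at 1.44, against 0.06 with the authors' scaling, 76.2% against 51.2% of the calls were upward, and Cebpb stood at 0.61. The separate list of glucocorticoid targets divided evenly, with 12 higher and 12 lower. Errfi1, a feedback inhibitor of EGF receptor signalling, averaged 435 ± 7.88 RPKM in isolated cells and 16.7 ± 0.514 in whole muscle, while Fbxo32, a ubiquitin ligase of muscle atrophy, averaged 1.92 ± 0.194 RPKM in isolated cells and 112 ± 4.73 in whole muscle. Beside these differences, 16 of 16 muscle fibre, 11 of 11 immune and 12 of 12 mitochondrially encoded genes were lower in isolated cells and 11 of 11 satellite cell markers were higher. Muscle fibre markers took 0.148% ± 0.0435 of reads in isolated cells and 19.6% ± 0.175 in whole muscle, and mitochondrially encoded genes took 0.517% ± 0.0771 in isolated cells and 3.34% ± 0.0721 in whole muscle. Their part in the result was not tested.

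RNA labelled during isolation was richest in the metallothioneins. Set against the total RNA of isolated cells, 6 of the 9 genes were higher in the isolation label and 1 was lower, where 59.5% of 14863 genes were called, 29.8% higher and 29.7% lower. The median of the 9 differences was 0.87, against -0.07 over all genes. Here too, pulled-down RNA was set against total RNA. A higher level and a larger part among labelled transcripts thus cannot be told apart. Mt1 had 7258, 5831, 5617 and 9273 RPKM in the isolation label, against 1015, 1040, 1104 and 1110 in isolated cells. The lowest library of the isolation label was thus well above the highest of isolated cells, and 58.6% of all genes had groups that did not overlap (2.68, adjusted p = 1.95e-06). Mt2 had 4244, 3372, 3161 and 5490 RPKM in the isolation label, against 608, 591, 672 and 666 in isolated cells (2.65, adjusted p = 2.62e-06). Cebpb had 23.2, 26.1, 23 and 42.9 RPKM in the isolation label, against 1.67, 2.53, 4.35 and 6.25 in isolated cells (2.89, adjusted p = 1.04e-04).

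Tsc22d3 averaged 57.9 ± 23.2 RPKM in the isolation label and 18.4 ± 1.59 in isolated cells (1.53, adjusted p = 0.00118). Glul averaged 66.4 ± 5.26 RPKM in the isolation label and 36.1 ± 1.13 in isolated cells (0.87), and Cebpd averaged 554 ± 91.0 RPKM in the isolation label and 338 ± 34.9 in isolated cells (0.71). Zbtb16 went the other way, with 6.39, 3.35, 4.37 and 3.04 RPKM in the isolation label, against 12.3, 12.5, 11 and 11.5 in isolated cells (-1.42, adjusted p = 3.50e-04). These labelled values rest on few reads, 44 to 337 per library. Fkbp5, at 8.13 ± 2.62 RPKM in the isolation label and 6.55 ± 0.717 in isolated cells, and Sgk1, at 78.5 ± 16.7 in the isolation label and 87.3 ± 5.38 in isolated cells, were not called (adjusted p = 0.349 and 0.342). Muscle fibre markers moved with these differences, 16 of 16 higher, and took 6.04% ± 3.62 of reads in the isolation label and 0.148% ± 0.0435 in isolated cells. Satellite cell markers were lower in 10 of 11 cases, and immune markers were higher in 10 of 11, with 0.112% ± 0.00307 of reads in the isolation label and 0.0235% ± 0.000444 in isolated cells. Their part in the result was not tested.

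Most calls in this comparison depended on the scaling. With library sizes from all reads, Cebpd stood at 0.01 (adjusted p = 0.977) and Glul at 0.17 (adjusted p = 0.10), where the median of all genes was -0.64. The same library sizes called Sgk1 lower (-0.87, adjusted p = 0.00298), so that 4 of the 9 genes were higher and 2 lower. Over all 14863 genes, they gave 3008 higher and 7253 lower. Scaled to the mitochondrially encoded genes, which themselves took 1.60% ± 0.503 of reads in the isolation label and 0.517% ± 0.0771 in isolated cells, the median of all genes was -1.95. On that scale none of the 9 genes was called higher and 6 were called lower, where 612 of 14863 genes were called higher and 12128 lower. Cebpb was at 0.69 (adjusted p = 0.139), Mt1 at 0.32 (adjusted p = 0.512) and Mt2 at 0.28 (adjusted p = 0.546), Sgk1 was at -2.52 (adjusted p = 2.38e-05), and Tsc22d3, Cebpd, Glul and Fkbp5 were below 0. Of the separate glucocorticoid targets, 12 were higher and 5 lower. Nfkbia, the inhibitor of NF-kB, averaged 386 ± 78.6 RPKM in the isolation label and 140 ± 3.91 in isolated cells (1.44), and Errfi1 averaged 202 ± 67.6 RPKM in the isolation label and 435 ± 7.88 in isolated cells (-1.17). Among metal handling and oxidative stress genes, 4 of 15 were higher and 9 lower. Slc39a14 averaged 27.1 ± 10.3 RPKM in the isolation label and 98.7 ± 6.44 in isolated cells (-1.92).

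The labels taken over 6 h in the animal and over about 6 h of isolation differed in all 9 genes, where 63% of 13003 genes were called, 38.5% higher and 24.4% lower. The 5 genes higher in the 6 h label were Zbtb16 (4.01), Tsc22d3 (3.91), Fkbp5 (3.07), Sgk1 (2.71) and Glul (1.72). Zbtb16 ranked 22nd and Tsc22d3 29th of all genes tested. The 4 genes lower in the 6 h label were Mt2 (-3.35), Mt1 (-2.70), Cebpb (-1.80) and Cebpd (-0.87). No gene of the 9 had overlapping libraries, against 62.4% of all genes without overlap, and every adjusted p was 0.00151 or less. The labelled RNA came from whole muscle in 1 group and from purified cells in the other, so the tissue and the time of labelling cannot be told apart. Scaling by median of ratios moved the median of all genes to 0.04 and by all reads to -0.19, against 0.31 with the authors' scaling, and left the same 5 higher and the same 4 lower. Beside these differences, 11 of 11 satellite cell markers were lower and 12 of 16 muscle fibre markers higher in the 6 h label, and their part in the result was not tested. The receptor gene Nr3c1 averaged 32.7 ± 2.65 RPKM in the 6 h label and 8.25 ± 2.13 in the isolation label (1.96). Of the other glucocorticoid targets, 18 of 24 were higher in the 6 h label and 3 lower, among them Nfkbia at 164 ± 4.31 RPKM in the 6 h label and 386 ± 78.6 in the isolation label.

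Stem cells isolated with α-amanitin had higher relative levels of 8 of the 9 genes than those isolated with DMSO, and none was lower. Over all 13710 genes tested, 44.2% were called and 33.9% were called higher, and the median difference was 0.28, against 1.40 for the 9 genes. That background rested on single libraries: in place of 6058, 10660 genes were called without replicate 1 of the α-amanitin group, and 2828 to 3560 when any of the other α-amanitin libraries or of DMSO replicates 2, 3 and 4 was left out alone. Fkbp5 had 17.4, 16.5, 21.9 and 25.6 RPKM with α-amanitin, against 2.35, 2.80, 3.05 and 4.11 with DMSO. It was 5.83-fold higher (adjusted p = 7.01e-05), with a wide gap between the groups. Tsc22d3 had 35.1, 65.1, 72.3 and 74.3 RPKM with α-amanitin, against 21.3, 12.8, 12.9 and 14.4 with DMSO (1.94, adjusted p = 0.00203). Zbtb16 had 19.1, 12.4, 16.7 and 19.4 RPKM with α-amanitin, against 6.19, 4.83, 3.85 and 4.02 with DMSO (1.74, adjusted p = 5.83e-04). Sgk1 had 305, 292, 337 and 366 RPKM with α-amanitin, against 173, 155, 118 and 112 with DMSO (1.24, adjusted p = 0.00371). In none of these 4 genes did the groups overlap, which held for 27.8% of all genes.

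Glul averaged 96.5 ± 24.4 RPKM with α-amanitin and 44.5 ± 13.2 with DMSO (1.11, adjusted p = 0.0123), and the lowest α-amanitin library at 60.4 lay below the highest DMSO library at 63.6. Cebpb had 9.0, 28.9, 72.4 and 70.6 RPKM with α-amanitin, against 3.82, 3.66, 3.15 and 6.51 with DMSO. The α-amanitin libraries spread widely, and the difference was 2.90 ± 0.577 (adjusted p = 0.00650). Cebpd averaged 612 ± 182 RPKM with α-amanitin and 459 ± 66.1 with DMSO and was not called (adjusted p = 0.253). Replicate 1 of the α-amanitin group was low in RPKM for Tsc22d3, Glul, Cebpb and Cebpd, and without it Cebpd was called (0.62, adjusted p = 0.00302). The authors scaled the size of that library to 1.54 times its reads, the highest of its group, which lowers all its RPKM values. How much of the low values and of the Cebpd call came from that scaling was not tested. With library sizes from all reads and all libraries kept, Cebpd stood at -0.15 (adjusted p = 0.271). Mt1 had 2162, 2676, 3192 and 2909 RPKM with α-amanitin, against 1370, 1170, 821 and 830 with DMSO (1.40, adjusted p = 0.00311). Mt2 averaged 1322 ± 164 RPKM with α-amanitin and 719 ± 207 with DMSO (0.91, adjusted p = 0.0129).

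RPKM here gives a level relative to a library size that the authors scaled, so a higher value does not show more molecules per cell. Those sizes were 0.917 to 1.54 (replicate 1) times the reads in genes with α-amanitin and 1.25 to 1.66 times with DMSO. Over the first table they ran from 0.612 to 1.95 times the reads. The direction of several of these genes depended on what the libraries were scaled to. Mitochondrially encoded genes are transcribed by another polymerase, and scaling to them put the median of all genes at -1.20, with 2.25% of the calls upward, against 76.7% with the authors' scaling. On that scale 272 of 13710 genes were called higher and 11839 lower. Among the 9 genes 5 were called: Fkbp5 and Cebpb were higher, Cebpd, Mt2 and Glul were lower, and Sgk1 (-0.42) and Mt1 (-0.26) lay below 0 without a call. Library sizes from all reads gave 43.9% of calls upward, a median of -0.18 over all genes, and 7 of the 9 genes higher. Over all 13710 genes, 3223 were then higher and 4127 lower. Marker genes moved beside these differences. Muscle fibre markers, 16 of 16 higher, took 2.36% ± 0.927 of reads with α-amanitin and 0.0845% ± 0.00760 with DMSO, and mitochondrially encoded genes took 0.991% ± 0.115 with α-amanitin and 0.464% ± 0.0836 with DMSO. Their part in the result was not tested. Of the separate glucocorticoid targets, 13 of 24 were higher and 1 lower. Trim63, a ubiquitin ligase of muscle atrophy, averaged 15.9 ± 8.20 RPKM with α-amanitin and 0.435 ± 0.129 with DMSO, and the lower gene was the kinase subunit Pik3r1, at 6.27 ± 1.45 RPKM with α-amanitin and 11.3 ± 1.72 with DMSO. The DMSO value of Trim63 is near the floor, under the 1 RPKM used to filter genes.

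Fixation before sorting was accompanied by far lower Sgk1, Cebpd, Mt1 and Mt2. Of 12816 genes tested, 23% were called and 10.8% were called lower in fixed cells, and 4 of the 9 genes were called lower and none higher. In place of 2951, 1862 genes were called without replicate 2 of the unfixed group and 1527 without replicate 3 of it. The median of the 9 differences was -2.74, against 0.07 over all genes. The fixed libraries are labelled replicates 1, 3, 4 and 5 and are given in that order. Sgk1 had 15.2, 7.99, 7.76 and 14.2 RPKM in fixed cells, against 377, 162 and 217 in unfixed cells. It was 21-fold lower (-4.39 ± 0.347, adjusted p = 5.97e-05), the 51st lowest of all genes tested. Cebpd had 48.0, 23.9, 40.9 and 135 RPKM in fixed cells, against 534, 1505 and 873 in unfixed cells (-4.13, adjusted p = 7.07e-04). Mt1 had 217, 174, 450 and 384 RPKM in fixed cells, against 1353, 5210 and 4117 in unfixed cells (-3.43, adjusted p = 0.00111). Mt2 had 65.1, 163, 236 and 314 RPKM in fixed cells, against 1208, 2872 and 2386 in unfixed cells (-3.59, adjusted p = 0.00104). In each of these 4 genes the highest fixed library was below the lowest unfixed one, as for 35.8% of all genes in either direction.

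The other 5 genes were not called in fixed cells. Cebpb had 14.7, 2.29, 34.6 and 66.4 RPKM in fixed cells, against 72.9, 177 and 127 in unfixed cells (-2.74, adjusted p = 0.0526). Its groups did not overlap either, as for 35.8% of all genes. Zbtb16 had 4.81, 2.77, 1.63 and 26.6 RPKM in fixed cells, against 6.07, 20.1 and 22 in unfixed cells (adjusted p = 0.249). Fkbp5 had 3.13, 3.19, 2.46 and 15.6 RPKM in fixed cells, against 6.88, 7.01 and 7.87 in unfixed cells (adjusted p = 0.438). In Fkbp5, Zbtb16 and Cebpb the library labelled replicate 5 was the highest of the fixed group. Among the called genes it was also the highest for Cebpd and Mt2, but not for Sgk1 and Mt1. Without replicate 5, 7 of the 9 genes were called lower, with Cebpb at -3.38 (adjusted p = 0.0216), Zbtb16 at -2.12 (adjusted p = 0.0284) and Fkbp5 at -1.18 (adjusted p = 0.0270). Over all 12543 genes then tested, 1177 were called lower and 1265 higher.

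Tsc22d3 had 71.3, 38.7, 39.2 and 211 RPKM in fixed cells, against 27.4, 36.3 and 43.2 in unfixed cells. Replicate 5 was again the highest, and the difference of 0.97 was not called (adjusted p = 0.215). Glul averaged 63.8 ± 20.7 RPKM in fixed cells and 62.5 ± 2.19 in unfixed cells, with overlapping libraries (adjusted p = 0.954). Of 23 tested glucocorticoid targets of the separate list, 1 was higher and 9 were lower. Errfi1 averaged 65.0 ± 32.2 RPKM in fixed cells and 1342 ± 92.7 in unfixed cells (-4.49), and Dusp1, a phosphatase that ends MAP kinase signals, averaged 31.6 ± 15.8 RPKM in fixed cells and 435 ± 28 in unfixed cells (-3.87). The gene that was higher, Sesn1, averaged 34.7 ± 11.8 RPKM in fixed cells and 15.8 ± 2.03 in unfixed cells. Among metal handling and oxidative stress genes, 9 of 14 were lower and none higher, led by the oxidative stress enzyme Srxn1 at 6.78 ± 2.23 RPKM in fixed cells and 398 ± 96.2 in unfixed cells (-5.80). Endothelial markers were lower in 7 of 8 cases and took 0.0162% ± 0.00868 of reads in fixed cells and 0.0915% ± 0.0634 in unfixed cells. Mitochondrially encoded genes, 7 of 10 higher, took 2.99% ± 0.467 of reads in fixed cells and 1.04% ± 0.387 in unfixed cells, and satellite cell markers took 0.553% ± 0.125 in fixed cells and 0.887% ± 0.0534 in unfixed cells. Their part in the result was not tested.

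The pair of metallothioneins kept a narrow ratio within each group of the first table, and that ratio differed between tissues and cells. Mt1 over Mt2 was 2.72 ± 0.0622 in the 6 h label, 2.66 ± 0.0467 after 1 d of label, 3.54 ± 0.130 after 4 d of label and 3.49 ± 0.180 in whole muscle. It was 1.73 ± 0.0374 in the isolation label, 1.68 ± 0.0521 in isolated cells, 2.06 ± 0.109 with α-amanitin and 1.47 ± 0.0557 with DMSO. All libraries drawn from muscle thus had a higher ratio, at 2.62 or more, than any library drawn from purified cells of that table, at 2.15 or less. In the fixation table the ratio was 1.88 ± 1.03 in fixed cells and 1.55 ± 0.378 in unfixed cells. The highest fixed library reached 3.33 and the lowest was at 1.07. These ratios were not tested.

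**Figure D4:**
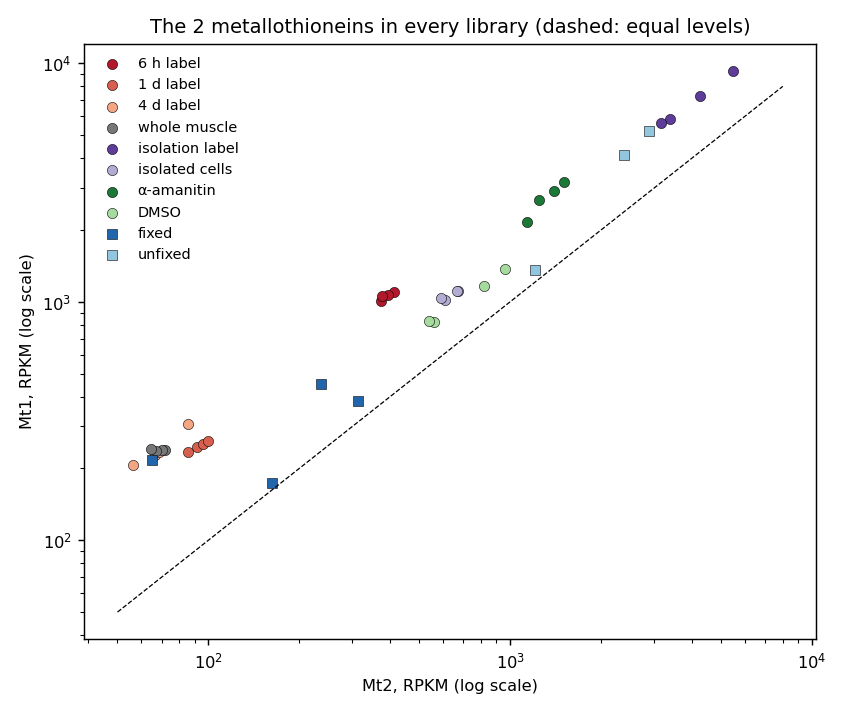
Mt1 against Mt2 in every library, RPKM on log axes; circles are the first table, squares the fixation table, and the dashed line marks equal levels. The muscle-derived libraries lie farther above the line than the purified cell libraries, and the isolation label reaches 9273 RPKM of Mt1.

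Across the 8 groups of the first table, the genes fell into different orders. Tsc22d3 ran from 818 ± 29.8 RPKM in the 6 h label over whole muscle, the 1 d and 4 d labels, α-amanitin, the isolation label and isolated cells down to 15.4 ± 4.04 with DMSO, a 53.2-fold range. Its neighbours overlapped between whole muscle and the 1 d label, between α-amanitin and the isolation label, and between isolated cells and DMSO. Fkbp5 ran from 69.7 ± 5.74 RPKM in the 6 h label to 3.08 ± 0.749 with DMSO, with the 1 d label second. Overlaps joined whole muscle, α-amanitin and the 4 d label, and the isolation label with isolated cells. Sgk1 had the 6 h label first, α-amanitin second at 325 ± 33.3 RPKM and DMSO next at 140 ± 29.3, each clear of the next. Isolated cells, the isolation label, whole muscle and the 4 d label then overlapped in turn, and the 1 d label was lowest. Zbtb16 had the 6 h label first and α-amanitin second at 16.9 ± 3.23 RPKM. From α-amanitin down to the 4 d label neighbours overlapped, and DMSO and the isolation label overlapped at the low end.

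Glul ran from 220 ± 5.81 RPKM in the 6 h label to 36.1 ± 1.13 in isolated cells, a 6.09-fold range, and its top 4 groups, with whole muscle, the 1 d label and α-amanitin after the 6 h label, did not overlap. Cebpd was highest with α-amanitin, and from there over the isolation label, DMSO and isolated cells to the 6 h label neighbours overlapped. The 1 d label, the 4 d label and whole muscle followed, each clear of the next. Cebpb was highest with α-amanitin at 45.2 ± 31.4 RPKM and next in the isolation label at 28.8 ± 9.51, and all 6 lower groups overlapped with their neighbours. Mt1 ran from 6995 ± 1685 RPKM in the isolation label to 239 ± 2.31 in whole muscle, a 29.3-fold range, and Mt2 from 4067 ± 1058 RPKM in the isolation label to 68.4 ± 3.19 in whole muscle, a 59.5-fold range. For Mt1, isolated cells, the 6 h label and DMSO overlapped in turn. For Mt2, the 6 h label lay clear below isolated cells.

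As a description over the 8 group means of log2(RPKM + 0.5), which share the muscle and cell sources of their libraries, Mt1 and Mt2 had a Pearson r of 0.988, and Cebpd had 0.948 with Mt2 and 0.915 with Mt1. Fkbp5 had 0.951 with Tsc22d3 and 0.926 with Glul, and Glul had 0.936 with Tsc22d3. Among 8669 other genes, the most alike were Klf15 (0.993), Mn1 (0.988) and Unc50 (0.986) for Tsc22d3, Tmem110 (0.970), Zfp956 (0.958) and Jak2 (0.956) for Fkbp5, and Alkbh1 (0.974), Pcid2 (0.974) and Slc35b3 (0.967) for Sgk1. For Zbtb16 they were Eif4enif1 (0.972), Lemd3 (0.942) and Hdac4 (0.941), for Glul Dgcr14 (0.972), Agpat9 (0.969) and Angptl7 (0.962), and for Cebpb Glt8d1 (0.971), Arf5 (0.969) and Cdkn1c (0.966). For Cebpd they were Ccdc134 (0.994), Cxcr4 (0.988) and Sat1 (0.981). Lmo4 led for both metallothioneins, at 0.989 for Mt1 and 0.990 for Mt2, followed by L3hypdh for both.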

How the data were processed

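Poly(A) RNA was read after oligo(dT) priming of 500 pg RNA (1 ng for the fixation libraries), per the labels' protocols. The authors deposited RPKM, in 1 table for labelling and inhibition and 1 for fixation. The submitters' processing notes name STAR, Trim Galore, edgeR, Subread and featureCounts and the mm10 build, without versions. The larger table's header stands 1 cell left of its values, so columns were taken by position. RPKM times gene length gave whole reads, within 0.1 read, for 100% of values, which yielded reads per library. Tests stayed within a table, since the tables were normalised separately. limma 3.58.1 (R 4.3.3; lmFit and eBayes with trend) was fitted on log2(RPKM + 0.5) of the libraries compared, keeping genes that reached 1 RPKM in 3 or more of them, with Benjamini-Hochberg adjustment over all genes; it was tested on simulated data. The pseudocount understates changes of low genes. Tables and figures were made in Python 3.11.15 (pandas 2.3.3, numpy 2.4.6, matplotlib 3.10.9). The 9 genes and all lists were chosen with earlier results of these data known. From each other list, up to 2 higher and 2 lower called genes by adjusted p could be named, and likeness named the 3 highest correlations. A called gene that this rule would name is not reported here. Alternatives changed scaling, filter, pseudocount, model, replicate block and libraries.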

Additional observations from a re-analysis of the deposited data

Results flagged for a closer look

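Among 81 sets of 4 libraries of 1 gene in 1 group, 7 had a library whose gap to the nearest other, divided by the range, passed the 95% critical value of Dixon's test, where chance gives about 5%. Fkbp5 in replicate 5 of the fixed group was at 15.6 RPKM, against 2.46 to 3.19 in the other libraries (0.945), and Zbtb16 in the same library was at 26.6 RPKM, against 1.63 to 4.81 (0.873). Tsc22d3 in replicate 3 of the 4 d label was at 143 RPKM, against 133 to 134 (0.938). Fkbp5 in replicate 1 of the 6 h label was at 61.2 RPKM, against 71.9 to 73.7 (0.862). Replicate 4 of the isolation label was high for Cebpb, at 42.9 RPKM against 23 to 26.1 (0.848), and for Cebpd, at 689 RPKM against 489 to 520 (0.843). Cebpb in replicate 4 of the 6 h label was at 9.27 RPKM, against 6.91 to 7.31 (0.83).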

How the results depend on the processing

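Leaving out each library in turn, the number of the 9 genes called stayed at 7 for the isolation label against isolated cells, at 9 for the 6 h label against the isolation label, at 8 for the 6 h label against muscle and against the 4 d label, and at 6 for the 4 d label against muscle. It ran from 8 to 9 for α-amanitin against DMSO and for isolated cells against muscle, from 6 to 7 after 1 d of label, and from 4 to 7 for fixed against unfixed, where 7 came without replicate 5. Scaled to mitochondrially encoded genes, α-amanitin gave 5 calls in place of 8, with Sgk1 at -0.42, Cebpd at -1.30, Mt1 at -0.26, Mt2 at -0.75 and Glul at -0.54. Over all genes, 12111 of 13710 were called on that scale in place of 6058. In the isolation label the same scaling put Fkbp5 at -1.95, Tsc22d3 at -0.80, Cebpd at -1.66 and Glul at -1.47. With all groups in 1 fit, the 4 d label gave 2 calls in place of 6. Library sizes from all reads turned Cebpd to -0.15 (α-amanitin), Fkbp5 to -0.41 (isolation label), Glul to 0.027 (fixed), Cebpb to 0.61 (isolated cells), Tsc22d3 to 0.18 and Glul to 0.012 (1 d label) and Sgk1 to 0.057 (4 d label). Median-of-ratios factors turned Tsc22d3 to 0.16 at 1 d and Sgk1 to 0.10 at 4 d. Leaving out single libraries turned uncalled values: Glul ran from -0.21 to 0.10 in fixed cells, Cebpb from -0.20 to 0.61 in the 6 h label against muscle, from -0.0057 to 0.81 in the 4 d label against muscle and from -0.41 to 0.066 in the 6 h label against the 4 d label, and in the 4 d label Mt1 ran from -0.095 to 0.095 and Mt2 from -0.11 to 0.098. Cebpb in fixed cells passed the threshold with voom on recovered reads (adjusted p = 0.0297), pseudocount 1 (0.0481), a filter of 5 RPKM (0.0442) and median-of-ratios factors (0.0493). It also passed without replicate 3 of the fixed group (adjusted p = 0.0451) or without replicate 4 (adjusted p = 0.0498). The causes were not tested. In no comparison did the deviations of libraries with the same replicate number correlate above 0.1 in every pair, so the numbers were not taken as pairs. The correlations were all below 0 for α-amanitin (-0.591 to -0.110). They were all above 0, with some under 0.1, against muscle for isolated cells (0.00809 to 0.218), the 6 h label (0.0161 to 0.163), the 1 d label (0.0192 to 0.142) and the 4 d label (0.0407 to 0.236), and of both signs in the other comparisons. With the replicate block, α-amanitin gave 6 calls, with Mt2 at adjusted p = 0.0721 and Glul at 0.0750, Cebpb was called in fixed cells (0.0144), isolated cells (1.18e-04) and the 1 d label (7.98e-04), and Glul in fixed cells stood at 0.083. For α-amanitin, 1978 of 13710 genes were called with that block. Only replicates 1 and 3 occur in both fixation groups, so the blocked difference there rests on those numbers alone. Depth limits the isolation label most, where Zbtb16 rests on as few as 44 reads in a library.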
